A study of Mus musculus with 24 samples.

Results

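Genes encoding the core of the pre-mRNA splicing machinery were followed across the cerebellum and cortex of mice that lack the DNA repair factors ATM, APTX or both. The members were all genes whose symbol begins with Sf3a or Sf3b, Prpf, Snrp or Srsf followed by the usual number or letter, and there were 44 of them among the 22562 genes listed: 8 SF3a and SF3b genes, 12 Snrp genes, 13 Prpf genes and 11 Srsf genes. Whole cerebellum was represented by 6 libraries of Atm Nes-cre; Aptx-/- double mutants, 2 of Aptx-/- mutants, 2 of Atm Nes-cre mutants and 4 of controls. For whole cortex there were 6 libraries of double mutants and 4 of controls. In the Atm Nes-cre line a conditional Atm allele is removed by Cre driven from the Nestin promoter, which acts in neural progenitors, so cells of other origin such as microglia and vessels keep ATM, whereas the Aptx allele is lost in every cell. The labels give Atm Nes-cre for the Atm single mutants too, whereas the text of the study writes Atm-/- for them, and the files do not settle which allele they carry. Double mutants were described as symptomatic adults and controls as littermates, and the labels give neither sexes nor the alleles of the controls. The labels name samples but not animals, so the p-values measure only the spread between these samples.

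Introns are removed from pre-mRNA by the spliceosome, which is built anew on each intron from small nuclear ribonucleoproteins (snRNPs) and many further proteins. A ring of Sm proteins (Snrpb, Snrpd1, Snrpd2, Snrpd3, Snrpe, Snrpf and Snrpg) surrounds most spliceosomal RNAs, SF3a and SF3b let the U2 snRNP bind the branch point, and Prpf proteins act in later assembly, catalysis and disassembly. SR proteins (Srsf), which carry domains rich in arginine and serine, bind exons and steer the choice of splice sites. Both ATM and APTX, which resolves aborted DNA ligation products, are mutated in inherited human ataxias, and the cerebellum is the brain region most affected in them.

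Promoters are shown for 5 members, chosen because they rose in double-mutant cerebellum and hold a match to a short motif named below. Neither trait is therefore a result about these 5. RefSeq promoters (build GRCm38.p6) matched 38 of the 44 members. The ETS motif CCGGAAGT, on either strand, was found in 8 of the 38 (21.1%), against 4.0% of all 27025 promoters of the same length. The NRF1 motif CGCNTGCGC, on either strand, was found in 9 of them (23.7%), against 6.47% of all promoters. Other motifs were searched too. The SP1 motif GGGCGG was found in 63.2% of member promoters against 35.9% of all, and the YY1 motif AAGATGGCG in 5.26% against 1.49%. The CCAAT box was found in 42.1% against 37.9%, and the TATA box in 10.5% against 14.2%. The background of all promoters was not limited to genes expressed in these tissues, and no comparison with expressed genes alone was made. Within the 150 bases before the start, an ETS or NRF1 match occurred in 8 of the 25 members with a promoter that rose in double-mutant cerebellum and in 6 of the 13 that were not called there. These counts were not tested, and a member that was not called may still have moved. The sequences below are those 150 bases, 5′ to 3′ on the strand of the gene, for the 5 members with the smallest p-values among the 8, and capitals mark the ETS or NRF1 matches. They lie at chr3:95855886-95856035 (Prpf3, minus strand), chr4:124714711-124714860 (Sf3a3, plus strand), chr12:80945349-80945498 (Srsf5, plus strand), chr13:34875379-34875528 (Prpf4b, plus strand) and chr17:80207306-80207455 (Srsf7, minus strand).
Prpf3: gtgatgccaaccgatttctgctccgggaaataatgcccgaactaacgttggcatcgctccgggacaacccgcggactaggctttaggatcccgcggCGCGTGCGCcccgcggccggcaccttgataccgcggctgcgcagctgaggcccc
Sf3a3: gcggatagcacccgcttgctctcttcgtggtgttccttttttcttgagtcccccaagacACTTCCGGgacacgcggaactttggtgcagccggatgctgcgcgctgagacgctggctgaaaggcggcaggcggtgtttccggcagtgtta
Srsf5: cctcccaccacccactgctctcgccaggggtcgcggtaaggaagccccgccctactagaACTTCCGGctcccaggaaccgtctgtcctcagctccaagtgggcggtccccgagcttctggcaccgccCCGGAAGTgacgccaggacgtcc
Prpf4b: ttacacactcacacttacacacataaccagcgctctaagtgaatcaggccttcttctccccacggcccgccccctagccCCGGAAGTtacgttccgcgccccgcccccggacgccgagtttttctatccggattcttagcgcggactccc
Srsf7: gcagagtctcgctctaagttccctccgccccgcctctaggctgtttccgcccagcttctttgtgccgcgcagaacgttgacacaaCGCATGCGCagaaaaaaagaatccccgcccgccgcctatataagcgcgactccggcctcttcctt
The NRF1 match began 54 bases before the start of Prpf3 and 65 bases before that of Srsf7. The ETS match began 91 bases before the start of Sf3a3 and 71 bases before that of Prpf4b, and Srsf5 held matches at 91 and 23 bases.

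Levels are in FPKM, that is, sequenced fragments relative to transcript length and library size, and can therefore be compared between genes. The files hold no counts and the absolute depth is unknown. The sum of FPKM ran from 229937 to 247730 in the 14 cerebellum libraries and from 239529 to 256460 in the cortex libraries other than control 4, where the uncharacterised gene Gm10654 took 58.1% of a sum of 554380. Aptx was lower in libraries that carry its null allele, at 2.09 to 2.86 FPKM in double-mutant and 2.25 to 2.77 FPKM in Aptx-/- cerebellum, against 3.11 to 3.59 FPKM in control cerebellum. Atm was listed at 7.59 to 9.14 FPKM in double-mutant and 6.75 to 7.13 FPKM in control cerebellum, but a value over the whole gene does not isolate the deleted part and checks nothing. Within each tissue the column labels of the mutant libraries carry a code that differs from that of the controls. What the code marks is not stated, and it cannot be told apart from genotype. Values of the controls and of double mutant 6 carry more than 10 digits (98.5% to 99.9% of them, against at most 0.0448% elsewhere), so these columns were written in another way. For genes below 0.2 FPKM, the ratio to double mutant 1 took one common value, as whole reads would give, in 16.1% to 20.9% of genes in the other mutant libraries of cerebellum and 17.0% to 19.2% in those of cortex, against 2.44% to 3.41% and 1.56% to 1.89% in the controls. In double mutant 6 the share was 0.305% in cerebellum and 0.333% in cortex, so its column resembled the controls in digits but not in this. By these steps the mutant libraries other than double mutant 6 had 0.642 to 1.33 times the depth of double mutant 1 of their tissue. The values of mutants and controls may thus have been made differently, which cannot be told apart from genotype. Ddx3y, a Y-linked gene, was at 19.9 to 28.9 FPKM in double mutants 2, 3 and 5 of both tissues, 2.3 and 8.24 FPKM in double mutant 6 of cerebellum and cortex, 26.5 FPKM in Aptx-/- mutant 1 and at most 0.103 FPKM in the other mutant libraries, against at most 0.0532 FPKM in all controls, so sex was not balanced between genotypes. With Ddx3y as a covariate 26 members rose in double-mutant, 14 in Aptx-/- and 11 in Atm Nes-cre cerebellum and 17 in double-mutant cortex, where 29, 20, 14 and 21 rose without it. The shares of all genes that rose with this covariate are not set beside these counts.

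All 44 members were measured. In control cerebellum Snrpn, a paralog of Snrpb that neurons express strongly, was highest at 229 ± 16.5 FPKM (SD, n = 4), followed by Srsf5 at 87.5 ± 9.08, Sf3b1, the protein that contacts the branch point, at 57.2 ± 0.325, and Prpf19, a ubiquitin ligase of the catalytic complex, at 55.4 ± 5.69 FPKM. Srsf1 (54.3 ± 1.38 FPKM) lay within the spread of Prpf19. The lowest member of each family was Sf3b4 (4.4 ± 1.37 FPKM), Snrpf (1.6 ± 0.261), Prpf4 (6.08 ± 0.299) and Srsf12 (3.61 ± 0.285). In control cortex the highest were Snrpn (234 ± 9.63 FPKM), Srsf5 (72.0 ± 4.08), Sf3b1 (54.3 ± 2.84) and Prpf19 (51.0 ± 0.645), and Snrpf (0.988 ± 0.25) was again lowest and did not pass the filter on low values in cortex. The Sm protein genes are short, many of them have near-identical pseudogenes, and Snrpn is similar to Snrpb and lies in a transcript shared with Snurf, so reads could be split between copies and these values are uncertain.

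In double-mutant cerebellum splicing genes were higher as a group. Of the 44 members 29 rose (adjusted p below 0.05 in limma) and none fell, while 22.3% of all 13277 genes tested rose and 10.1% fell. The median difference of the members was 0.27 on the log2(FPKM + 1) scale, against 0.06 over all genes tested, and 39 of the 44 were above 0. The changes were small: Prpf3 had the largest, 1.5-fold, and no member passed a log2 change of 1. The summed FPKM of all members was 1387 to 1484 in double-mutant libraries, against 1186 to 1288 in control libraries, with no overlap. Every double mutant was above every control for 25 members and below for none, against 15.5% of all genes tested with every double mutant above. The share of the calls over all genes that were higher, 68.9%, was 52.2% once libraries were quantile normalized and 49.9% once they were rescaled to a common median, and 26 and 25 members then rose. All fold changes below are on the log2(FPKM + 1) scale, which understates the change of low genes.

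**Figure D1:**
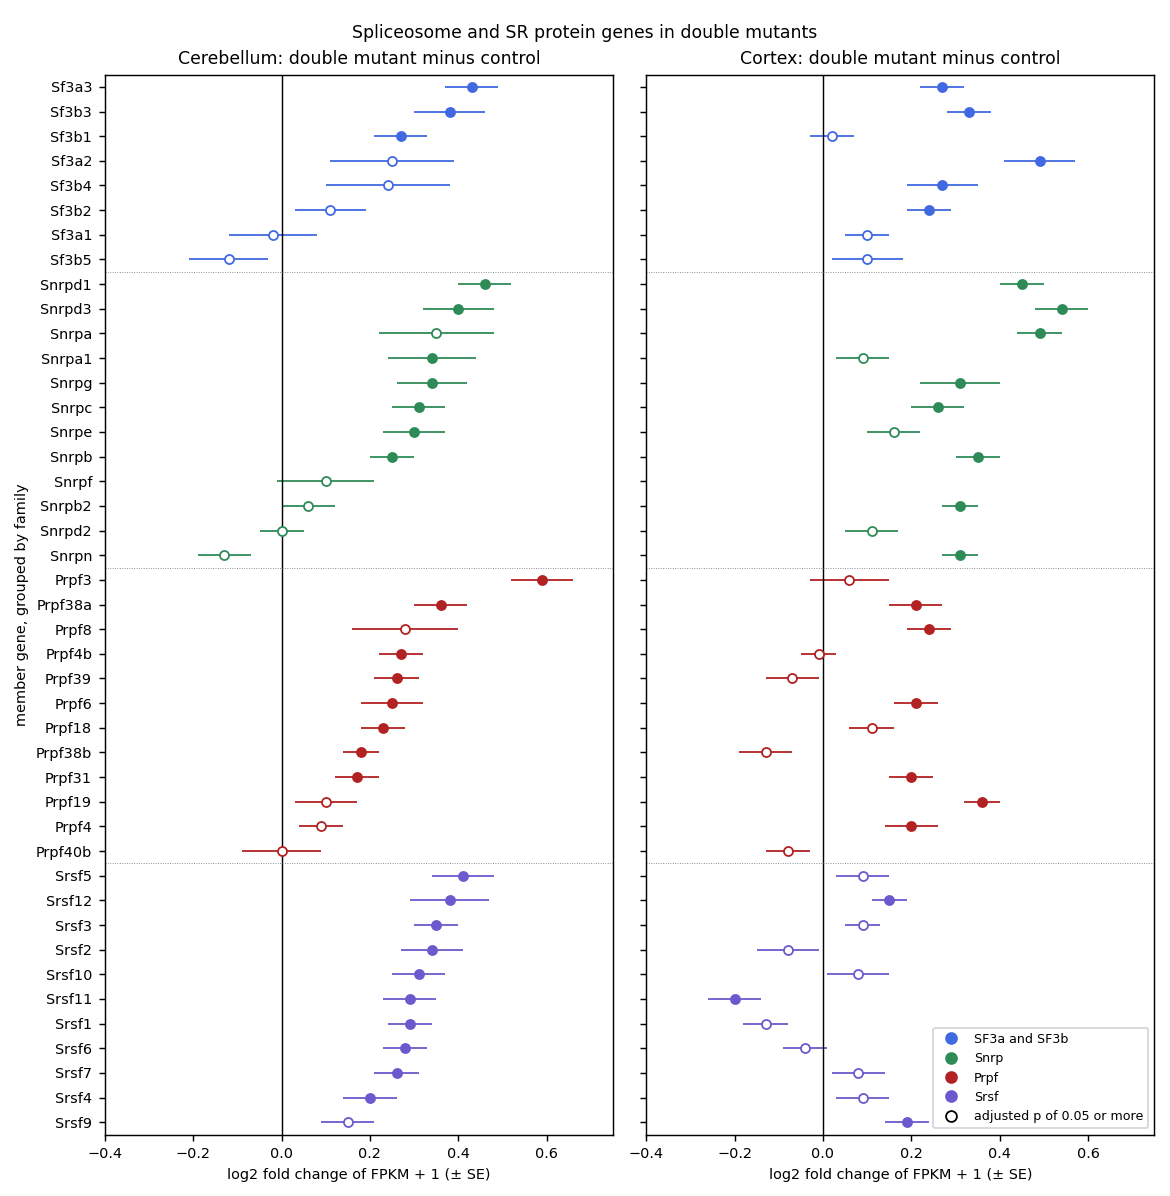
Log2(FPKM + 1) difference between double mutants and controls (points, with SE) for the members, grouped by family, in cerebellum (left) and cortex (right); filled points passed an adjusted p of 0.05, and 1 Prpf gene is not drawn. In cerebellum 10 of the 11 Srsf genes are filled and right of 0, whereas in cortex the filled points are mostly SF3 and Snrp genes and Srsf11 is filled left of 0.

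The SF3a and SF3b genes encode the proteins that fix the U2 snRNP on the branch point. Of the 8 genes 3 rose in double-mutant cerebellum, Sf3a3, Sf3b3 and Sf3b1. Sf3a3, a subunit of SF3a, had 19.0 at the lowest, 20.3 at the median and 22.3 FPKM at the highest in double mutants, against 13.8, 16.1, 14.1 and 15.4 FPKM in controls. The groups did not overlap, and Sf3a3 was 1.35-fold higher (log2 difference 0.43 ± 0.06 SE, adjusted p = 0.000123). Sf3b1 had 65.4, 68.4 and 76.7 FPKM (lowest, median, highest) in double mutants, against 57.4, 57.5, 56.9 and 56.9 FPKM in controls. Its controls were nearly identical and all double mutants stood above them (0.27 ± 0.06, adjusted p = 0.00319). Sf3b3, a large scaffold subunit of SF3b, had 18.6, 22.6 and 24 FPKM in double mutants, against 15.4, 20, 16.4 and 15.4 FPKM in controls. Only control 2 reached the range of the double mutants, and Sf3b3 rose by 0.38 ± 0.08 (adjusted p = 0.00227). The remaining members, Sf3a1, Sf3a2, Sf3b2, Sf3b4 and Sf3b5, differed by -0.12 to 0.25 and were not called.

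In Sf3a1, Sf3a2, Sf3b2 and Sf3b4 control 2 was the highest control and double mutant 4 the lowest double mutant. Sf3b4, which binds RNA just upstream of the branch point, had 6.31 FPKM in control 2 against 3.07, 4.16 and 4.06 FPKM in the other controls, and Sf3b2 had 42.2 FPKM in double mutant 4 against 52.7 to 58.2 FPKM in the other double mutants. The deviation of the members from their group means had r = -0.58 with transcript GC content in double mutant 4 and r = 0.57 in control 2 over 44 genes (-0.54 and 0.48 over all genes tested). Other libraries showed this too: r was 0.47 to 0.57 in double mutants 1, 2 and 3, -0.44 in double mutant 5 and -0.43 in control 1. The Atm Nes-cre mutants had 0.47 and -0.47, which mirror each other by construction in a group of 2 libraries. Over all genes tested r was -0.27 to 0.34 in the cerebellum libraries other than double mutant 4 and control 2. Without double mutant 4 and control 2, an alternative chosen after seeing the data, 36 members rose, and Sf3a2, Sf3b2, Sf3b4, Snrpa, Prpf8, Prpf19 and Srsf9 joined the others. The share of all genes that rose in that setting is not given here, so whether the members gained relative to all genes is not shown. The part of GC content in these results was not tested.

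The Snrp genes encode the Sm ring and proteins that are specific to the U1 and U2 snRNPs. Of the 12 genes 7 rose in double-mutant cerebellum: Snrpa1, Snrpb, Snrpc, Snrpd1, Snrpd3, Snrpe and Snrpg. Snrpd1, an Sm ring protein, had 31.4, 33.1 and 36.1 FPKM (lowest, median, highest) in double mutants, against 24.8, 21.1, 23.7 and 26.5 FPKM in controls. The lowest double mutant was above the highest control, and the difference was 0.46 ± 0.06 (1.38-fold, adjusted p = 9.5e-05). Snrpd3, another ring protein, had 18.4, 19.5 and 22.2 FPKM in double mutants, against 15.0, 14.3, 14.5 and 14.9 FPKM in controls. The groups were again separate and the difference was 0.40 ± 0.08 (1.32-fold, adjusted p = 0.00227). Snrpc, a U1 protein that helps recognise the splice donor, had 3.47, 3.68 and 3.92 FPKM in double mutants, against 2.54, 3.04, 2.93 and 2.6 FPKM in controls (0.31 ± 0.06, adjusted p = 0.00237). Snrpb, the paralog of Snrpn, had 37.3, 38.0 and 39.9 FPKM in double mutants, against 29.1, 34.2, 32.7 and 32.3 FPKM in controls (0.25 ± 0.05, adjusted p = 0.00275). The groups overlapped neither for Snrpc nor for Snrpb.

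Not all of the ring moved. Snrpd2 averaged 45.5 ± 1.87 FPKM in double mutants (SD, n = 6) and 45.5 ± 1.35 FPKM in controls (SD, n = 4), with a 95% confidence interval of the log2 difference from -0.1 to 0.1. Snrpf, at 1.31 to 2.19 FPKM in double mutants and 1.26 to 1.84 FPKM in controls, was too low to resolve (interval -0.13 to 0.34). Snrpn had 202 FPKM at the lowest, 207 at the median and 231 at the highest in double mutants, against 231, 237, 244 and 206 FPKM in controls. All double mutants but double mutant 4 lay below controls 1, 2 and 3, and the difference of -0.13 ± 0.06 was not called (adjusted p = 0.111), although it passed as lower without double mutant 4 (adjusted p = 0.0393) or without control 4 (0.0318), and after quantile normalization (0.01). Snrpa, of the U1 snRNP, had 9.82 to 15.3 FPKM in double mutants, against 9.42, 14, 9.06 and 8.0 FPKM in controls, where control 2 was high (0.35 ± 0.13, adjusted p = 0.0554), and it passed without double mutant 4 (0.0162) or without control 2 (0.00447). Snrpa1, of the U2 snRNP, rose by 0.34 ± 0.10 (adjusted p = 0.0218) and missed the threshold without control 4 (0.075).

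Prpf genes span many steps of splicing, and 9 of the 13 rose in double-mutant cerebellum, among them Prpf3, Prpf4b, Prpf6, Prpf18, Prpf31, Prpf38a, Prpf38b and Prpf39. Prpf3, which binds the U4 and U6 RNAs, had the largest change of all members. It had 9.9, 11.8 and 12.7 FPKM (lowest, median, highest) in double mutants, against 7.06, 7.31, 7.27 and 7.44 FPKM in controls. The lowest double mutant stood well above the highest control (0.59 ± 0.07, 1.5-fold, adjusted p = 3.84e-05). Prpf38a, needed for activation of the assembled spliceosome, had 18.6, 19.3 and 22.1 FPKM in double mutants, against 14.9, 14.5, 15.7 and 16.2 FPKM in controls (0.36 ± 0.06, adjusted p = 0.000387), again without overlap. Prpf4b, a kinase that phosphorylates splicing proteins, had 40.0, 43.1 and 47.5 FPKM in double mutants, against 37.0, 35.3, 35.6 and 34.1 FPKM in controls (0.27 ± 0.05, adjusted p = 0.000918).

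The Prpf genes that were not called were Prpf4, Prpf8, Prpf19 and Prpf40b. Prpf8, the scaffold of the catalytic centre, had 24.2 to 40.2 FPKM in double mutants, against 24, 35.3, 27.2 and 24.9 FPKM in controls. Double mutant 4 was the lowest and control 2 the highest of their groups, and the difference of 0.28 ± 0.12 missed the threshold (adjusted p = 0.0889) but passed without double mutant 4 (0.00665) or without control 2 (0.0176). Prpf40b averaged 13.0 ± 1.65 FPKM in double mutants (SD, n = 6) and 13.0 ± 0.899 FPKM in controls (SD, n = 4), with an interval of -0.18 to 0.18. Prpf31 and Prpf6, which hold the U4, U5 and U6 particles together, rose by 0.17 ± 0.05 (adjusted p = 0.0133) and 0.25 ± 0.07 (0.0126), and both were lost without control 3 (0.0515 and 0.0513).

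The SR proteins were the most uniform family in cerebellum, where 10 of the 11 Srsf genes rose. Srsf5, the most abundant of them, had 109, 114 and 126 FPKM (lowest, median, highest) in double mutants, against 87.6, 99.2, 86.0 and 77.1 FPKM in controls. All double mutants were above all controls (0.41 ± 0.07, 1.33-fold, adjusted p = 0.000487). Srsf1, the founding member of the family, had 63.0, 66.5 and 73.1 FPKM in double mutants, against 54.9, 55.2, 52.3 and 55.0 FPKM in controls (0.29 ± 0.05, 1.23-fold, adjusted p = 0.000538). Srsf3, the smallest SR protein, had 50.8, 55.0 and 60.2 FPKM in double mutants, against 42.8, 42.3, 43.0 and 43.7 FPKM in controls (0.35 ± 0.05, 1.28-fold, adjusted p = 0.000166). In each of these the double mutants were separate from the controls. Srsf10, which can act as a splicing repressor, had 31.2, 34.8 and 38.5 FPKM in double mutants, against 27.9, 27.1, 28.4 and 27.9 FPKM in controls (0.31 ± 0.06, adjusted p = 0.00145). Srsf2, Srsf4, Srsf6, Srsf7, Srsf11 and Srsf12 rose by 0.20 to 0.38, and of these Srsf4, the smallest change, was lost without double mutant 6 (adjusted p = 0.0543), control 3 (0.0959) or control 4 (0.0853). Srsf9 was the exception, at 0.15 ± 0.06 (adjusted p = 0.0525), and it passed without double mutant 4 (0.0137).

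**Figure D2:**
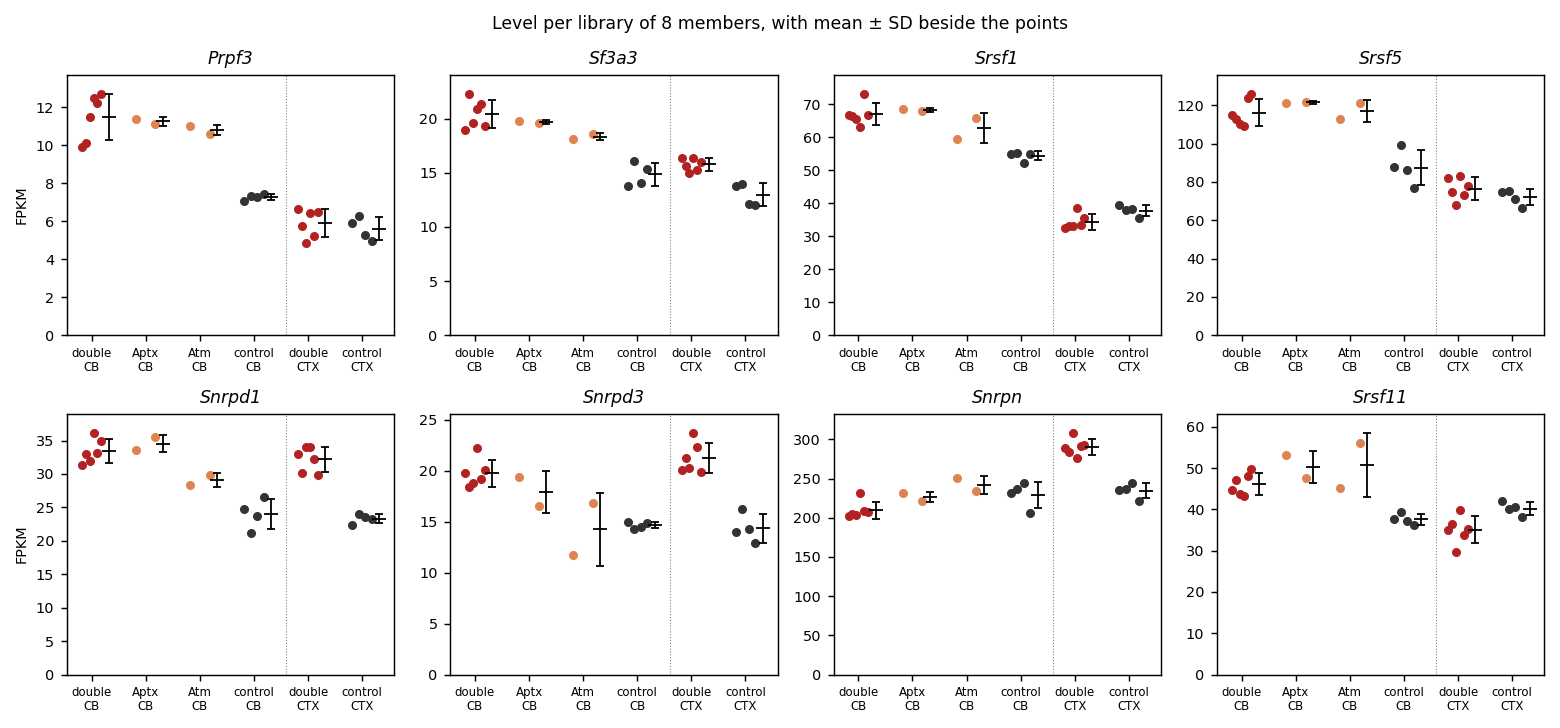
FPKM per library (points) with the mean and SD (bars) of 8 members in the 4 cerebellum groups and the 2 cortex groups. Prpf3, Sf3a3, Srsf1 and Srsf5 are higher in all mutant cerebella than in control cerebella, Snrpd1 and Snrpd3 are higher in double mutants of both tissues, and Snrpn in double-mutant cortex (276 to 308 FPKM) is above control cortex.

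Several other measures also differed in mutant cerebellum, and not all of them followed the members across the genotypes. In double mutant 6 taken alone, a single library, 38 of the 44 members were above the control mean, with a median difference of 0.28. Snhg11, a long noncoding RNA of neurons, was at 75.7 to 97.2 FPKM in double mutants, 118 FPKM in both Aptx-/- mutants and 144 to 149 FPKM in Atm Nes-cre mutants, against 124 to 169 FPKM in controls, and fell by 0.83 in double mutants (adjusted p = 1.22e-05). Markers of granule neurons, the most numerous cells of the cerebellum, summed to 945 to 1164 FPKM in double mutants, 1079 to 1116 in Aptx-/- mutants and 1069 to 1184 in Atm Nes-cre mutants, against 784 to 997 FPKM in controls, and 7 of 14 rose in double mutants. Markers of Purkinje cells summed to 995 to 1140 FPKM in double mutants, 1549 to 1573 in Aptx-/- mutants and 1491 to 1647 in Atm Nes-cre mutants, against 1255 to 1449 FPKM in controls, with 2 higher and 3 lower of 12 in double mutants and a median difference of -0.07. Among them Itpr1, a calcium channel of these cells, had 33.6 to 48.1 FPKM in double mutants, against 232 to 348 FPKM in controls (-2.78 ± 0.11, adjusted p = 3.64e-10). Markers of astrocytes summed to 838 to 936 FPKM in double mutants, against 688 to 772 FPKM in controls (3 of 7 higher). They summed to 865 to 867 FPKM in Aptx-/- and 886 to 887 FPKM in Atm Nes-cre mutants. In double mutants 5 of 6 markers of reactive astrocytes rose (148 to 173 against 67.5 to 83.9 FPKM). These summed to 109.6 to 116 FPKM in Aptx-/- and 104 to 130.2 FPKM in Atm Nes-cre mutants. The part of cell makeup in the splicing gene differences was not tested, and in bulk tissue a change in the number of cells of a type and a change in RNA per cell cannot be told apart. After removal of the trend on transcript GC content in each library, an alternative chosen after seeing the data, 24 members rose and Snrpn fell, Prpf18, Prpf31, Prpf38b, Prpf39, Srsf1, Srsf4, Srsf6 and Srsf7 were no longer called, and the median difference was 0.17. The share of all genes that rose after this removal is not set beside that count.

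The single mutants were set against the same 4 control libraries as the double mutants. Their column labels and values also differ in form from those of the controls, as described above. An effect of losing either factor cannot be told apart from that difference. In Aptx-/- cerebellum 20 of the 44 members rose and none fell, against 10.4% of all genes tested that rose, with a member median of 0.27 and a median of 0.06 over all genes. The calls comprised 3 SF3, 2 Snrp, 7 Prpf and 8 Srsf genes. Prpf3 had 11.4 and 11.1 FPKM in Aptx-/- cerebellum, against 7.06 to 7.44 FPKM in controls (0.57 ± 0.09, adjusted p = 0.00183). Snrpd1 had 33.6 and 35.5 FPKM, against 21.1 to 26.5 FPKM in controls (0.51 ± 0.08, adjusted p = 0.00152), and Prpf4b had 46.2 and 46.5 FPKM, against 34.1 to 37.0 FPKM (0.38 ± 0.07, adjusted p = 0.00269). In each of the 3 both mutants were above all controls. Prpf39, a U1-associated protein, had 28.6 and 26.4 FPKM, against 19.2 to 21.2 FPKM in controls (0.40, adjusted p = 0.00317), and Srsf5 had 121 and 122 FPKM, against 77.1 to 99.2 FPKM (0.47 ± 0.09, adjusted p = 0.00416). With 2 libraries in the group the count depended on single libraries: 4 members rose without Aptx-/- mutant 1 and 9 without Aptx-/- mutant 2. Prpf3, Prpf4b, Snrpd1 and Srsf5 were called whichever of the 14 cerebellum libraries was left out. The share of calls over all genes that were higher was 66.9%, against 50.6% after quantile normalization and 45.2% after rescaling.

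In Atm Nes-cre cerebellum 14 of the 44 members rose and none fell, against 6.78% of all genes tested, with a member median of 0.23 and a median of 0.05 over all genes. They were 3 SF3, 1 Snrp, 6 Prpf and 4 Srsf genes. Prpf38b, which contains a stretch rich in arginine and serine, had 41.5 and 42.6 FPKM in Atm Nes-cre mutants, against 32.3 to 34.7 FPKM in controls (0.33 ± 0.06, adjusted p = 0.00381), and Prpf4b had 46.0 and 46.1 FPKM, against 34.1 to 37.0 FPKM (0.37 ± 0.07, adjusted p = 0.0044). Both genes stood apart from all controls and were called whichever library was left out. Prpf3 had 11.0 and 10.6 FPKM (0.52 ± 0.09, adjusted p = 0.0044), and it missed the threshold without Atm Nes-cre mutant 1 (0.0514). Srsf11 had 45.2 and 56.2 FPKM, against 36.3 to 39.3 FPKM in controls (0.41 ± 0.09, adjusted p = 0.00901), and was lost without Atm Nes-cre mutant 2 (0.146). The number of members that rose was 5 and 3 without Atm Nes-cre mutants 1 and 2, 9 without double mutant 3, which enters through the shared estimate of the spread, 8 without control 1 and 7 without control 3. It was 7 with quantile normalized values and 7 with rescaled values, which took the share of higher calls over all genes to 48.3% and 47.5%, against 67.6%.

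Snrpd1 was the one Sm ring gene called in either single mutant, and in Atm Nes-cre mutants its call (adjusted p = 0.0461) was lost when any of 11 of the 14 libraries was left out, with adjusted p-values between 0.0574 and 0.244. Snrpg had 11.9 to 14.6 FPKM in double mutants, 11.0 and 11.0 in Aptx-/- mutants and 13.6 and 11.8 in Atm Nes-cre mutants, against 8.78 to 11.8 FPKM in controls, with differences from controls of 0.34 (called), 0.09 and 0.27 (not called). Snrpb had 37.3 to 39.9 FPKM in double mutants, 33.7 and 35.8 in Aptx-/- mutants and 35.8 and 31.3 in Atm Nes-cre mutants, against 29.1 to 34.2 FPKM in controls. The per-library median of the Snrp genes, relative to the mean of the controls, was 0.23 to 0.32 in double mutants, 0.08 and 0.08 in Aptx-/- mutants and 0.08 to 0.16 in Atm Nes-cre mutants, against -0.03 to 0.04 in controls. For the Srsf genes it was 0.20 to 0.38 in double mutants, 0.30 and 0.33 in Aptx-/- mutants and 0.14 and 0.29 in Atm Nes-cre mutants, against -0.05 to 0.02 in controls.

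**Figure D3:**
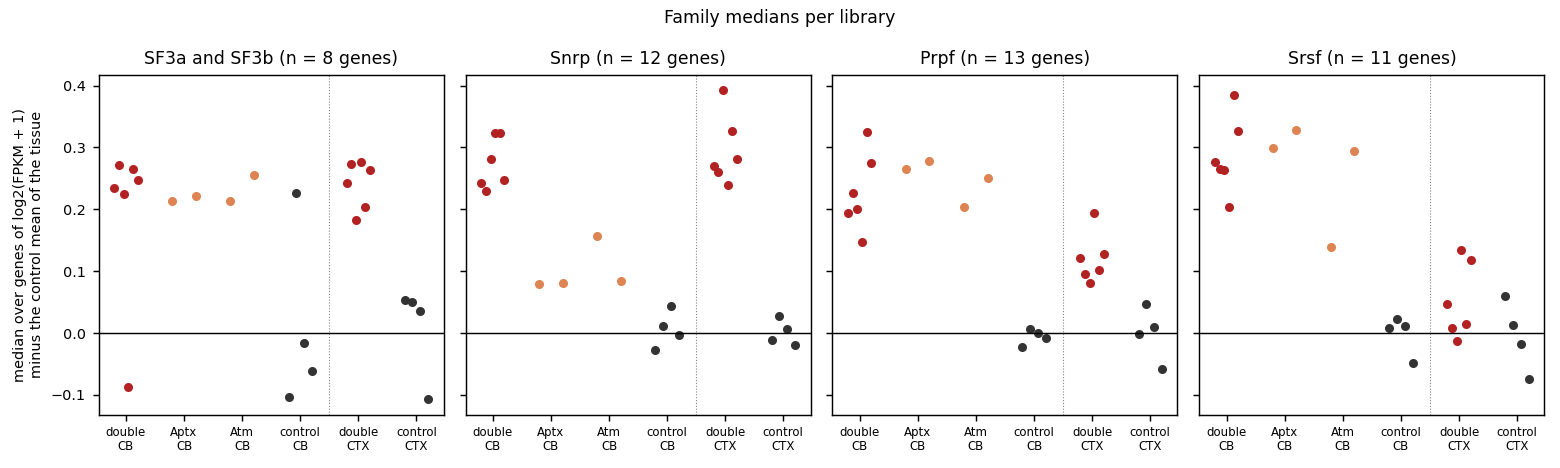
Median over the genes of each family of log2(FPKM + 1) minus the control mean, for each library, by genotype and tissue. Snrp medians of double mutants (0.23 to 0.32 in cerebellum, 0.24 to 0.39 in cortex) lie above those of all other groups, and Srsf medians of double mutants lie above controls in cerebellum (0.20 to 0.38) but overlap them in cortex (-0.01 to 0.13).

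Whether double mutants differ from the single mutants was tested directly. Against the mean of both single mutants no member was called in limma, and 1.13% of all genes tested rose. An unadjusted p below 0.05 was found for 9 of the 44 members and for 1881 of the 13277 genes tested. Of those 9 members 7 were Snrp genes, 6 of them with positive differences and Snrpn with a negative one, and the median difference was 0.13 for the Snrp genes and 0.03 over all members. The largest was Snrpd3 (0.30 ± 0.08, adjusted p = 0.0791), which passed without Atm Nes-cre mutant 2 (0.0103). Against the Aptx-/- mutants no member was called, 3 had an unadjusted p below 0.05, as did 1031 of all genes tested, and 0.0829% of all genes rose. The share of higher calls over all genes, 57.9% of 19, was 40.0% after quantile normalization. Against the Atm Nes-cre mutants Snrpd3 and Snrpc were the members that rose, against 1.29% of all genes, and 9 members and 2055 of all genes had an unadjusted p below 0.05.

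Both of those calls rested on few libraries. Snrpd3 had 18.4 to 22.2 FPKM in double mutants, against 11.7 and 16.8 FPKM in Atm Nes-cre mutants (0.47 ± 0.10, adjusted p = 0.0337). Atm Nes-cre mutant 1 held the low value of 11.7 FPKM, and without it the difference was 0.22 (adjusted p = 0.46). The call was also lost without double mutant 1 (0.0516), 5 (0.0551) or 6 (0.0623). Snrpc had 3.47 to 3.92 FPKM in double mutants, against 2.82 and 2.54 FPKM in Atm Nes-cre mutants (0.35, adjusted p = 0.0391), and the call was lost when any of 10 of the 14 libraries was left out, with adjusted p-values between 0.0524 and 0.275. No SR protein gene was called against the single mutants. Srsf3 came nearest, with a difference from their mean of 0.11 (interval 0.01 to 0.22, unadjusted p = 0.0392, adjusted p = 0.315). Srsf5 had an interval of -0.18 to 0.11 for its difference from the mean of the single mutants, Srsf1 one of -0.07 to 0.13 and Srsf7 one of -0.11 to 0.11. Across the 44 members the difference from the single mutants had r = -0.61 with transcript length (-0.20 over all genes tested), and the Snrp genes were the shortest, with a median length of 865 bases against 2414 for all members.

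In cortex, 21 of the 43 members tested rose and 1 fell, against 24.3% and 14.5% of all 12815 genes tested. The member median was 0.15, against 0.03 over all genes. The summed FPKM of the members was 1205 to 1250 in double mutants, against 1034 to 1100 FPKM in controls. Every double mutant was above every control for 18 members, against 17.7% of all genes tested, and no member was below. The calls fell mostly on snRNP genes: 5 of 8 SF3 and 8 of 11 Snrp genes rose, while 6 of 13 Prpf and 2 of 11 Srsf genes did. The share of higher calls over all genes was 62.6%, against 49.6% after quantile normalization and 53.1% after rescaling. In double mutant 6 taken alone, a single library, 38 of the 43 members were above the control mean, with a median difference of 0.16.

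Snrpd3 showed the largest change in cortex. It had 19.9, 20.8 and 23.7 FPKM (lowest, median, highest) in double mutants, against 14, 16.3, 14.3 and 12.9 FPKM in controls, without overlap (0.54 ± 0.06, 1.45-fold, adjusted p = 6.16e-05). Snrpa had 13.2, 14.6 and 15.1 FPKM in double mutants, against 10.4, 9.52, 10.2 and 9.79 FPKM in controls (0.49 ± 0.05, 1.41-fold, adjusted p = 1.18e-05), and Snrpd1 had 29.8, 32.6 and 34.0 FPKM, against 22.4, 24, 23.6 and 23.3 FPKM (0.45 ± 0.05, 1.36-fold, adjusted p = 2.25e-05). In each the 2 groups were far apart relative to their spread. Snrpn, the most abundant member, had 276, 290 and 308 FPKM in double mutants, against 236, 237, 244 and 221 FPKM in controls (0.31 ± 0.04, adjusted p = 0.000166). Snrpb2, of the U2 snRNP, had 11.8 to 13.4 FPKM in double mutants, against 10.2, 9.93, 9.64 and 10.1 FPKM in controls (0.31 ± 0.04, adjusted p = 0.000202).

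Among the SF3 genes Sf3a2, which joins SF3a to the U2 snRNP, had 3.94, 4.62 and 5.13 FPKM in double-mutant cortex, against 2.96, 3.45, 2.68 and 2.72 FPKM in control cortex (0.49 ± 0.08, 1.41-fold, adjusted p = 0.000566). Sf3a3, Sf3b2 and Sf3b3 rose by 0.27, 0.24 and 0.33, and Sf3b4 by 0.27, which was lost without control 4 (adjusted p = 0.0612). Sf3b1 had 50.7 to 60.8 FPKM in double mutants, against 56.2, 55.5, 55.4 and 50.1 FPKM in controls, and the groups overlapped (interval -0.09 to 0.13). Prpf19 had 63.4, 65.3 and 69.0 FPKM in double mutants, against 50.7, 50.3, 51.8 and 51.3 FPKM in controls, well apart (0.36 ± 0.04, adjusted p = 1.51e-05). Prpf8 rose by 0.24 (adjusted p = 0.00299), Prpf6 and Prpf38a by 0.21 each, Prpf31 by 0.20 and Prpf4, which stays with Prpf3 on U4 and U6, by 0.20, which was lost without control 3 (0.0706) or control 4 (0.0617).

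Most SR protein genes did not move in cortex. Srsf9 rose by 0.19 (adjusted p = 0.00973) and Srsf12, a low member that can antagonise other SR proteins, by 0.15 (adjusted p = 0.0142). Srsf11 had 29.8, 35.1 and 39.8 FPKM (lowest, median, highest) in double mutants, against 42.0, 40.2, 40.5 and 38.1 FPKM in controls. All double mutants but double mutant 4 lay below all controls, and Srsf11 was the only member that fell (-0.20 ± 0.06, adjusted p = 0.0253). The call was lost without control 1 (0.0721), control 2 (0.0541) or control 3 (0.0594), and with Ddx3y, a Y-linked gene, as a covariate (0.396). Srsf1 had 32.5, 33.2 and 38.6 FPKM in double mutants, against 39.3, 37.8, 38.3 and 35.5 FPKM in controls, and its difference of -0.13 missed the threshold (adjusted p = 0.0525) but passed as lower without double mutant 4 (0.00723) or control 4 (0.0352) and after quantile normalization (0.00229). The Srsf genes summed to 289 to 338 FPKM in double mutants, against 289 to 313 FPKM in controls, whereas the Snrp genes summed to 476 to 527 FPKM, against 382 to 406 FPKM.

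Cell markers moved in cortex as well. Markers of oligodendrocytes summed to 479 to 775 FPKM in double mutants, against 911 to 1029 FPKM in controls (6 of 7 lower), those of cortical excitatory neurons to 285 to 408 FPKM, against 221 to 254 FPKM (8 higher and 2 lower of 12), and those of blood to 329 to 791 FPKM, against 119 to 450 FPKM (4 of 4 higher). Snhg11 was at 105 to 151 FPKM in double mutants, against 204 to 228 FPKM in controls, and fell by 0.70 (adjusted p = 6.17e-05). Their part in the splicing gene differences was not tested. The 2 tissues shared 11 members that rose, which are 11 of the 29 in cerebellum and 11 of the 21 in cortex: Prpf6, Prpf31, Prpf38a, Sf3a3, Sf3b3, Snrpb, Snrpc, Snrpd1, Snrpd3, Snrpg and Srsf12. The share of all genes that rose in both tissues was not counted, so this overlap is a description and not a result about the members. Prpf40b, Sf3a1, Sf3b5 and Snrpd2 were tested in both tissues and called in neither, and Snrpf was tested and not called in cerebellum.

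The double-mutant difference in cerebellum minus that in cortex was tested directly, over the 20 libraries of these genotypes from both tissues. Of 43 members 13 were more positive in cerebellum, against 15.4% of all 12322 genes tested, and 3 were more negative, against 11.7%. By family, 7 of 11 Srsf and 5 of 13 Prpf genes and Sf3b1 were more positive in cerebellum, and the more negative genes were Snrpn, Snrpb2 and Prpf19. With the cerebellum and cortex libraries of the same genotype and number taken as a block, 15 were more positive and the same 3 more negative. The shares over all genes with the block are not set beside these counts. The share of all calls that were positive was 56.9%, against 46.9% after rescaling.

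Srsf1 had a difference between double mutants and controls of 0.29 in cerebellum and -0.13 in cortex, and the 2 differed by 0.43 ± 0.07 (adjusted p = 0.000236). Srsf11 rose in cerebellum, with 43.3 to 49.8 FPKM in double mutants against 36.3 to 39.3 FPKM in controls, and fell in cortex, and the difference between tissues was 0.48 ± 0.08 (adjusted p = 0.000399). Prpf3 had 4.87 to 6.62 FPKM in double-mutant cortex, against 4.94 to 6.26 FPKM in control cortex, where the groups overlapped, and its change was 0.53 ± 0.12 more positive in cerebellum (adjusted p = 0.00256). Prpf4b, at 25.5 to 28.5 FPKM in double-mutant and 26.2 to 27.9 FPKM in control cortex, differed by 0.29 ± 0.06 (adjusted p = 0.00258). Srsf2, which was 0.34 higher in double-mutant cerebellum and -0.08 in cortex, differed by 0.42 (adjusted p = 0.00582). For Snrpn the difference of -0.44 ± 0.07 (adjusted p = 0.000312) set a value of -0.13 in cerebellum against 0.31 in cortex. Snrpd1 rose in both tissues, with a difference between them of 0.02 and an interval of -0.15 to 0.18, and Snrpd3 differed by -0.13 (interval -0.31 to 0.05). Srsf5 differed by 0.32 (adjusted p = 0.0153), and this was lost after removal of the GC trend (0.22, adjusted p = 0.0845).

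**Figure D4:**
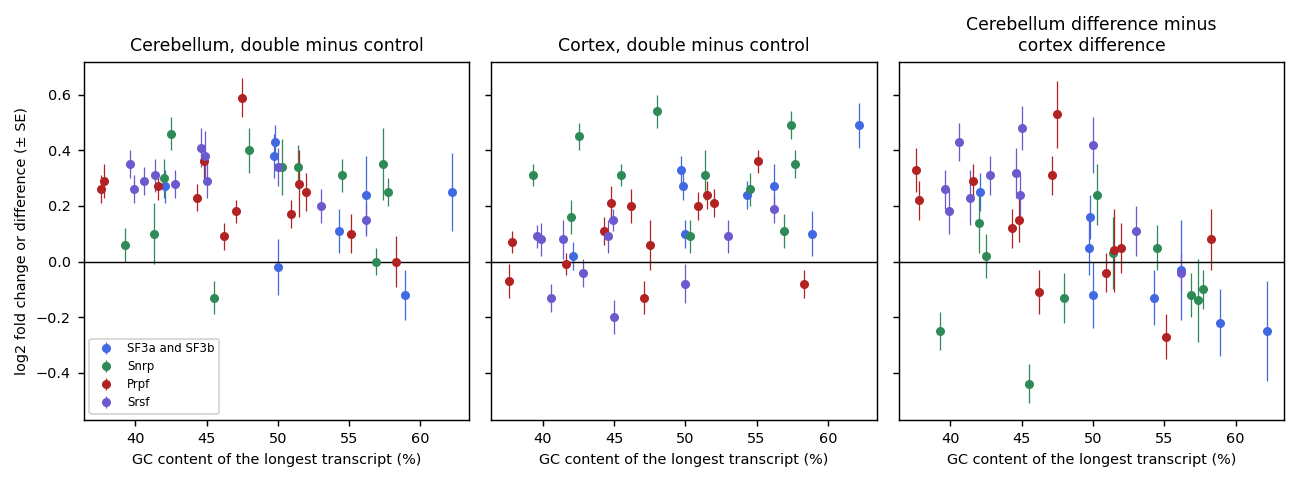
Log2(FPKM + 1) difference between double mutants and controls (points, with SE) of each member against transcript GC content in percent, for cerebellum, cortex and cerebellum minus cortex. The members lean downward with GC content in cerebellum (r = -0.27) and upward in cortex (r = 0.39), and the tissue difference slopes down (r = -0.52).

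The member families differ in base composition, and the tissue difference followed it. Transcript GC content had a median of 44.6% in Srsf, 47.1% in Prpf, 49.1% in Snrp and 52.2% in SF3 genes, with 50.2% over all genes tested. Across 43 members the tissue difference had r = -0.52 with GC content, and across all genes tested r = -0.30. These genes share libraries and the values are a description. After the GC trend of each library was removed, 7 of the 43 members were more positive and 4 more negative in cerebellum, against 1739 more positive of the 3575 genes called among all 12267 tested, so the members' share of more positive genes lay near that of all genes. With the block as well the members were 8 and 3. Those that remained positive included Prpf3 (0.46, adjusted p = 0.00255), Srsf1 (0.28, 0.00626) and Srsf11 (0.38, 0.00101), and Snrpn (-0.53, 3.65e-05), Snrpb2 and Prpf19 remained negative. Without the block, Prpf39, Sf3b1, Srsf3, Srsf5, Srsf6 and Srsf12 were among those no longer called, Prpf40b was newly more positive and Prpf4 newly more negative.

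Other genes of the splicing machinery, taken from lists of 179 genes of which 171 were tested in cerebellum and 172 in cortex, gave more higher than lower calls. In double-mutant cerebellum 77 rose and 7 fell, with a median of 0.16, where 22.3% and 10.1% of all genes did, and in cortex 55 rose and 23 fell, with a median of 0.09, where 24.3% and 14.5% did, against medians of 0.06 and 0.03 over all genes. Factors that act with SF3 on the U2 snRNP gave 10 higher and none lower of 16 in cerebellum and 9 higher and 2 lower in cortex. Among them Phf5a, a small SF3b subunit, rose by 0.43 ± 0.06 in cerebellum (adjusted p = 0.000127) and 0.52 ± 0.08 in cortex (0.000382). The helicase Snrnp200, which unwinds U4 from U6, rose by 0.52 ± 0.10 in cerebellum (adjusted p = 0.00128) and by 0.39 ± 0.05 in cortex (9.16e-05). The hnRNP proteins, which bind nascent RNA and often oppose SR proteins, gave 17 higher of 23 in cerebellum and 10 higher and 2 lower in cortex, led by Hnrnpk with 0.55 ± 0.05 (adjusted p = 5.2e-06) and 0.38 ± 0.04 (2.49e-05).

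Of 28 SR-related proteins and SR kinases 14 rose and 1 fell in double-mutant cerebellum, and 4 rose and 6 fell in cortex. Over all genes tested 22.3% rose and 10.1% fell in cerebellum, and 24.3% and 14.5% did in cortex. In the test between tissues 13 were more positive in cerebellum and none more negative, against 15.4% and 11.7% of all genes. The other factors of the tri-snRNP and B complex gave 4 higher and 1 lower of 15 in cerebellum, 7 higher and 1 lower in cortex, and 3 more negative and none more positive in cerebellum. Luc7l3, a U1-associated protein with an SR-like tail, rose by 0.50 ± 0.05 in cerebellum (adjusted p = 6.44e-06) and its change was 0.47 ± 0.07 more positive there than in cortex. The SR kinases Clk1 and Clk4 differed by 0.47 and 0.38 between tissues (adjusted p = 0.000911 and 0.00111). Srrm2, a large scaffold of nuclear speckles where SR proteins gather, fell by 0.55 in cortex (adjusted p = 0.000466). Neural splicing regulators were mixed, with 6 higher and 3 lower of 24 in cerebellum and 4 higher and 9 lower of 25 in cortex. In cerebellum their share of higher calls lay near that over all genes, as did that of the tri-snRNP and B complex factors. Rbfox1, a neuronal regulator of alternative exons, rose by 0.41 in cortex and its change was -0.62 in cerebellum relative to cortex. In cerebellum and cortex, LSm proteins gave 5 and 1 higher of 9, catalytic complex and Prp19-associated factors 11 and 12 higher of 24 (none and 1 lower), the minor spliceosome 3 and 1 higher of 9 (1 and 2 lower), and proteins that assemble snRNPs 3 and 3 higher of 14 (1 and none lower).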

How the data were processed

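Total RNA of whole cerebellum (14 libraries) and whole cortex (10 libraries) was sequenced as stranded, ribosome-depleted libraries. The authors aligned reads to mm9 with BWA (0.5.10 in the submitters' processing notes), counted them per gene with HTSeq (version not given in the sources used here) and deposited FPKM values, so the depth per sample is unknown and the number of libraries limits the precision. Groups came from the sample labels. Within each tissue, log2(FPKM + 1) was fitted over all genotype groups with limma (3.58.1 in R 4.3.3) with an intensity trend, for genes at 1 FPKM or more in at least 2 cerebellum or 4 cortex libraries. P-values were two-sided and adjusted by Benjamini-Hochberg over all genes tested, and genes were called below 0.05. The tissue difference was fitted on the double mutants and controls of both tissues. Deviations of same-numbered libraries from their group means had r = 0.23 to 0.5 in double mutants and 0.13 to 0.31 in controls between tissues. Within a tissue, between genotypes, r was -0.19 to 0.34. These ranges overlap and libraries of different number were not compared, so they do not settle whether the number marks pairs. The column labels give double mutants of the same number the same code number in both tissues, whereas those of the controls differ. The fits were tested on simulated data. Library values are given for up to 4 members per family with the smallest p in double-mutant against control cerebellum, up to 4 per direction among those called in each other comparison, the extremes of level, and Snrpb and Snrpn; other splicing genes are named from the up to 3 smallest p per list, and further members were named after their values were seen. Alternatives were other pseudocounts, filters and scalings, no trend, a replicate block, Ddx3y as a covariate, double mutant 6 alone, each library left out, and, chosen after seeing the data, removal of GC or length trends and of cerebellar double mutant 4 and control 2 together. Members and lists were chosen with earlier results of these data known. Tables and figures were made with Python 3.11.15 and pandas 2.3.3. Some results on single genes are not reported here, though counts and sums include those genes.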

Additional observations from a re-analysis of the deposited data

Results flagged for a closer look

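In each of 172 sets of one gene in one group of 4 to 6 libraries the most extreme library was compared with the others, and 13 stood apart by Dixon's criterion, which chance alone meets in about 1 set in 20. In double-mutant cerebellum, double mutant 4 was apart for Prpf6 (21.9 FPKM, others 26.9 to 28.5), Sf3a1 (9.22, others 12.5 to 14.3), Sf3b2 (42.2, others 52.7 to 58.2) and Snrpn (231, others 202 to 209). Double mutant 5 was apart for Sf3b1 (76.7 FPKM, others 65.4 to 69.6), Snrpa1 (16.8, others 12.4 to 13.9) and Srsf1 (73.1, others 63.0 to 66.7), and double mutant 6 for Prpf31 (9.76, others 10.5 to 10.9). In control cerebellum, control 2 was apart for Sf3b2 (56.0 FPKM, others 45.3 to 46.5) and control 3 for Srsf1 (52.3, others 54.9 to 55.2). In cortex, double mutant 5 was apart for Srsf9 (24.5 FPKM, others 22.1 to 22.8), and control 4 for Sf3b1 (50.1, others 55.4 to 56.2) and Sf3b3 (11.9, others 13.9 to 14).

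The change in double mutants differed between cerebellum and cortex for 15 members described here by the test of the difference itself in limma. On the log2(FPKM + 1) scale, cerebellum minus cortex, it was 0.53 for Prpf3, 0.48 for Srsf11, 0.43 for Srsf1, 0.42 for Srsf2, 0.33 for Prpf39, 0.32 for Srsf5, 0.31 for Prpf38b, 0.31 for Srsf6, 0.29 for Prpf4b, 0.26 for Srsf3, 0.25 for Sf3b1 and 0.24 for Srsf12. It was -0.44 for Snrpn, -0.27 for Prpf19 and -0.25 for Snrpb2.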

How the results depend on the processing

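Leaving out each library in turn gave 3272 to 4517 genes and 26 to 34 members called (member median 0.26 to 0.29) for double mutants against controls in cerebellum, 469 to 2620 and 4 to 21 (0.24 to 0.27) for Aptx-/-, 337 to 1774 and 3 to 17 (0.18 to 0.23) for Atm Nes-cre, 89 to 360 and 0 to 1 (0.01 to 0.05) for double against both single mutants, 2 to 45 and 0 to 0 (-0.01 to 0.02) against Aptx-/-, 42 to 374 and 0 to 2 (0.02 to 0.05) against Atm Nes-cre, 4051 to 5104 and 20 to 24 (0.13 to 0.16) in cortex, and 2717 to 3585 and 15 to 18 (0.06 to 0.12) for cerebellum minus cortex. Quantile normalization, rescaling, GC trend removal and length trend removal gave member medians of 0.21, 0.22, 0.17 and 0.22 in double-mutant cerebellum, 0.21, 0.22, 0.18 and 0.22 in Aptx-/- and 0.17, 0.18, 0.14 and 0.17 in Atm Nes-cre, where 7, 7, 9 and 7 members were called; Aptx-/- had 13 after GC trend removal. In cortex quantile normalization and length trend removal gave medians of 0.1 and 0.1. With the replicate block the counts were 846 genes and 9 members for Atm Nes-cre, and 3042 and 13 members in cortex. Double mutants gave 7 genes against both single mutants, 2 against Aptx-/-, and 44 genes and 0 members against Atm Nes-cre. The Aptx-/- median was then 0.24. Whether the numbers pair libraries within a tissue was not settled. Double mutant 6 alone gave 598 genes and 6 members in cerebellum and 825 and 7 in cortex, from 1 library that is assumed to vary like the other groups. With Ddx3y as a covariate, Aptx-/- had 1344 genes (median 0.23), double against Atm Nes-cre 115 and 0 members (median -0.01), and cortex 2340. GC trend removal gave 582 genes and 1 member for double against both single mutants, 31 against Aptx-/- and 601 against Atm Nes-cre. Leaving out cerebellar double mutant 4 and control 2 gave 2446 for Atm Nes-cre, 551 against both single mutants, 77 against Aptx-/- and 580 against Atm Nes-cre. Against Aptx-/-, 7 genes were called with no filter, 10 at a mean of 5 FPKM or more and 11 with no trend. Against Atm Nes-cre, members called were 0 with no filter, 1 at a mean of 5 FPKM (177 genes), 1 after quantile normalization, 1 after rescaling and 0 after length trend removal. For cerebellum minus cortex, a mean of 5 FPKM gave 2184 genes (median 0.12), and the median was 0.04 after GC trend removal and 0.04 with the block as well. The causes were not tested.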
